A study of Mus musculus with 4 samples.

Results

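The genes described here are those of the muscle ankyrin repeat and Xin group that respond to mechanical stress of the sarcomere. They were chosen by gene symbol from a list of 8 (Ankrd1, Ankrd2, Ankrd23, Csrp3, Xirp1, Xirp2, Flnc and Cryab). Of these, 5 were in the count table analysed here, which holds 13825 genes: Ankrd1, Ankrd23, Csrp3, Xirp1 and Cryab. Ankrd2, Xirp2 and Flnc were not analysed here. All 5 genes passed the filter on low counts, as did 13084 genes in all. RNA came from the tibialis anterior (TA), a mostly fast muscle of the lower leg, of adult male mice that were either WT or carried a whole body knockout of Fgf21 (Fgf21KO). The sciatic nerve was cut on the left, and muscle was taken 14 days later from the denervated leg or from the other leg, giving sham (WS) and denervated (WD) muscle of WT mice and likewise KS and KD of Fgf21KO mice. The methods describe a sham operation on the other leg, whereas the labels call that leg innervated. For each group 4 muscles were pooled into 1 library, so that no difference between a pair of libraries has a replicate check. The methods name C57BL/6J as the WT strain and do not state the strain background of the Fgf21KO mice.

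Striated muscle senses load in part through titin, the giant elastic protein of the sarcomere, and through the Z-disc to which titin is anchored. Ankrd1 (also called CARP) and Ankrd23 (DARP) encode muscle ankyrin repeat proteins, which bind titin in the I-band and also enter the nucleus. Csrp3 encodes muscle LIM protein, a Z-disc and nuclear adaptor that promotes muscle differentiation. Xirp1 encodes Xin, an actin-binding repeat protein of myotendinous junctions and of damaged myofibrils, which binds filamin C. Cryab encodes alpha B-crystallin, a small heat shock protein that holds desmin and titin in a folded state. Ankrd1 is best known as an inducible gene of the stressed heart, where TEAD factors and their coactivator YAP are among its regulators.

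The 5 genes differed widely in their response to denervation. Ankrd1 rose 72.9-fold, Csrp3 4.08-fold and Cryab 2.42-fold over both genotypes, whereas Xirp1 had a 1.66-fold higher level, short of the 2-fold threshold, and Ankrd23 a ratio of 0.854 to sham whose direction depended on scaling. By the criterion used throughout (an adjusted p-value below 0.05 by edgeR's quasi-likelihood test and a log2 fold change of at least 1), 3 of the 5 genes rose and 0 fell, where 13.0% of all tested genes were called (6.8% rose and 6.15% fell). The median log2 fold change was 1.28 over the 5 genes and 0.01 over the 13084 tested genes. Between Fgf21KO and WT muscle, 0 of the 5 genes differed 2-fold in sham or in denervated TA, as did only 2.04% and 1.56% of all tested genes, so this count is near the background.

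Promoter sequences are shown for the muscle ankyrin repeat gene that rose, the one that did not, and Csrp3, since the 2 ankyrin repeat genes encode related proteins and only Ankrd1 rose. RefSeq promoter entries (GRCm38.p6, 250 bases before the start of transcription and 50 from it) were held for 3 of the 5 genes, and all lie on the minus strand. Capitals mark MCAT elements, the TEAD recognition letters CATTCC or their complement.
Ankrd1 promoter, chr19:36119795-36120094: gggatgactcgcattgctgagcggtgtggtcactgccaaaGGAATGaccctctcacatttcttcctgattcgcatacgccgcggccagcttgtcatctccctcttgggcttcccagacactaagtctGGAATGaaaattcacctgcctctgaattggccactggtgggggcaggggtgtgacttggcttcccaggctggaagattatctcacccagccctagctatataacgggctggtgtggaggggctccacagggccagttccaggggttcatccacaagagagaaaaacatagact
Ankrd23 promoter, upstream start, chr1:36536507-36536806: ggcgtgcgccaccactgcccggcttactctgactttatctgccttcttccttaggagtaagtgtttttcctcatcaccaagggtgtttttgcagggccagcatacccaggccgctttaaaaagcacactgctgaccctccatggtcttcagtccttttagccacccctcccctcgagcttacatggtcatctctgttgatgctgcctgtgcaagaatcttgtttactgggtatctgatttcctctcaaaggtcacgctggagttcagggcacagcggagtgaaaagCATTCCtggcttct
Ankrd23 promoter, downstream start, chr1:36535690-36535989: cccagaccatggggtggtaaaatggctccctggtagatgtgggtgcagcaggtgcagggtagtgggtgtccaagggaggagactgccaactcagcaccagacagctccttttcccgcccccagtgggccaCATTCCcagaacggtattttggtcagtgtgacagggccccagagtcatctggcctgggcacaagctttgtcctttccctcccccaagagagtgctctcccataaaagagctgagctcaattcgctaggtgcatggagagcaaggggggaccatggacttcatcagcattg
Csrp3 promoter, upstream start, chr7:48848002-48848301: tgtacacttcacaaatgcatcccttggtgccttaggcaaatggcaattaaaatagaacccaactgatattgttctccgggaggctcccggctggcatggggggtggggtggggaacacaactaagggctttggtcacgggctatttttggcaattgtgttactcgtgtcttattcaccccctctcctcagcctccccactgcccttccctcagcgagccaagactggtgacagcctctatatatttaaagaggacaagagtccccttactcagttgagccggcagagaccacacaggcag

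The Ankrd1 promoter held 2 MCAT elements, whose first bases lay at -210 and -123 from the start of transcription. Each of the Ankrd23 windows held 1, at 37 in the upstream window and at -120 in the downstream window. Neither Csrp3 window held an MCAT element, including a second entry at chr7:48843622-48843921 that is not printed. Among all 32851 promoter entries searched in the same way, 14.7% held at least 1. The MCAT letters were present in windows of both ankyrin repeat genes. Their part in the different responses of these genes was not tested. The RUNX letters TGTGGT were found once in the Ankrd1 window (first base at -226) and once in the upstream Csrp3 window (38) and in none of the other windows of these genes, against 16.8% of all promoters. E-boxes (CANNTG) numbered 1 in the Ankrd1 window, 0 in the upstream and 2 in the downstream Ankrd23 window, and 5 in the upstream and 4 in the downstream Csrp3 window, and 72.3% of all promoters held at least 1. The AP-1 letters TGANTCA, the TATA box letters TATAAA and the MEF2 and CArG box motifs had no match in any of the 5 windows of these genes. They were held by 7.81%, 13.6%, 3.19% and 1.63% of all promoters. For the TATA box only the exact letters TATAAA were searched. Variant forms such as TATATAA, which the Ankrd1 window contains, were not counted. Both strands were searched for each motif. A match here is a run of letters and says nothing about binding.

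The authors deposited read counts per gene, with totals between 25249879 (WS) and 34141303 (KS) over the genes analysed here. The counts were scaled by edgeR's TMM factors, which ran from 0.870 to 1.12, and expressed as CPM, which corrects for the depth of each library. At 3 counts, taken as the lowest measurable level, expression was between 0.092 and 0.129 CPM. Mitochondrially encoded transcripts (15 genes) took 27.3% of the counts in WS and 30.8% in KS, but 19.7% in WD and 20.8% in KD. Scaling by total counts alone would put the median denervation ratio over the tested genes at 0.29 (log2) in WT and 0.36 in Fgf21KO muscle. Muscle identity was checked on listed markers. Of 8 skeletal muscle markers, 3 were in the table, and Myh1, Mylpf and Des had between 87850 and 641610 counts in every library. None of the 7 cardiomyocyte markers was analysed here, nor was the targeted gene Fgf21, which leaves the genotype of each library as labelled.

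Ankrd1 changed most of the 5 genes, from the lowest sham level among them. It had 323 counts in WS and 389 in KS, against 33261 in WD and 29336 in KD. Both denervated libraries thus lay far above both sham libraries. The share of all tested genes without overlap between sham and denervated libraries is not reported here. Expressed as CPM, the level of Ankrd1 went from 13.9 to 1020 in WT muscle and from 13.1 to 949 in Fgf21KO muscle. The log2 ratio was 6.19 in WT muscle (95% interval for counting error 6.04 to 6.36) and 6.17 in Fgf21KO muscle (6.03 to 6.33). These ratios were the 4th highest and the 8th highest of 13084 tested genes. When all 4 libraries were fitted together, with genotype and surgery as additive terms, the denervation log2 fold change was 6.19 ± 0.09 (SE), with an adjusted p of 2.92e-20 by edgeR's quasi-likelihood test, and no other tested gene had a smaller p in that model. This model treats the libraries of the 2 genotypes as replicates of a surgery. It leaves 1 residual degree of freedom, and most of its estimate of spread is borrowed from other genes. The SE was derived from the F statistic of the same test, so it is not a separate measure of precision. A log2 ratio of at least 1 was reached by 3 of the 5 genes in each genotype, and by 7.25% of tested genes for WT and 7.52% for Fgf21KO (14.8% and 13.6% in either direction). Ankrd1 was also the gene whose denervation response was closest between the genotypes, the log2 ratio in Fgf21KO muscle being 0.02 below that in WT muscle, with a counting interval of the difference from -0.23 to 0.19.

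**Figure D1:**
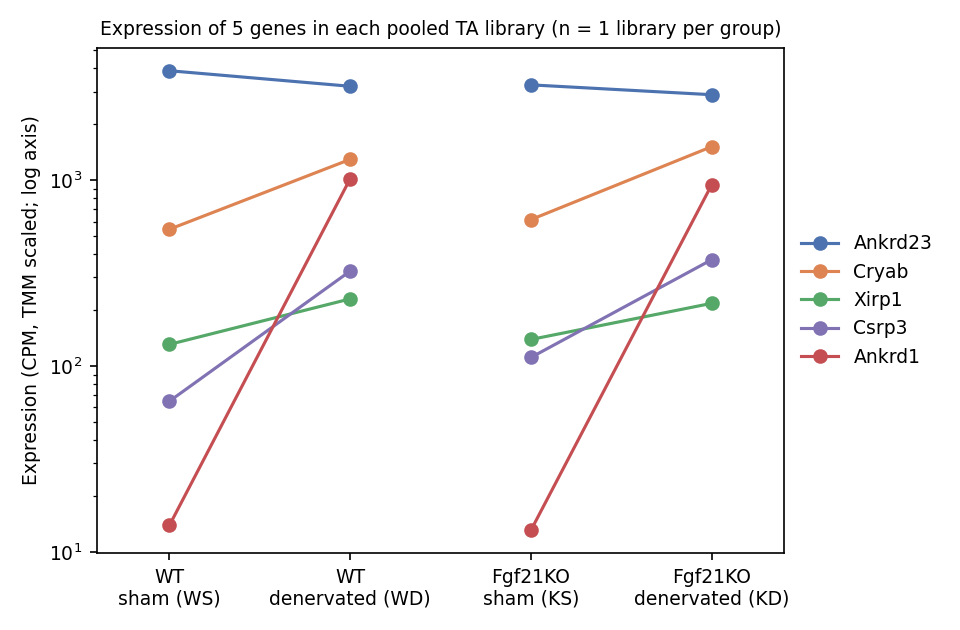
Expression of the 5 genes in each library (CPM after TMM scaling, log axis), with lines joining the sham and denervated library of a genotype. Each point is 1 pooled library, so there are no error bars. Ankrd1 goes from 13.9 to 1020 CPM in WT muscle and from 13.1 to 949 in Fgf21KO muscle, while Ankrd23 has at least 2890 CPM in every library.

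Ankrd23, the other ankyrin repeat gene measured, started from the opposite end of the range. In WT muscle it had 90532 counts (sham) and 104635 (denervated), and in Fgf21KO muscle 96996 and 89356, or 3890, 3209, 3265 and 2890 CPM in the same order. It took between 0.284% and 0.359% of all counts in each library. The 4 levels lay close together, and the denervated library was the lower one in both genotypes. Its log2 ratio was -0.28 in WT muscle (counting interval -0.29 to -0.27) and -0.18 in Fgf21KO muscle (-0.19 to -0.16). The additive model gave -0.23 ± 0.08 (SE), with an adjusted p of 0.0262 that passes the p-value threshold but a fold change well below 2. The sign depends on scaling. With total counts only, the additive log2 fold change was 0.09. That scaling also put the median log2 ratio over all tested genes at 0.29 in WT and 0.36 in Fgf21KO muscle. The lower level of Ankrd23 is therefore given for TMM scaling only and is not taken as a direction. In GENCODE M21, 78.2% of the exon bases of Ankrd23 are shared with Gm42417, a gene annotated on the same strand, and its counts are uncertain to the extent that reads were split between them.

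Levels of different genes can be set side by side only per length of transcript. The order per kb of exon in WS was Ankrd23 (1443 CPM per kb), Cryab (369), Csrp3 (24.2), Xirp1 (22.4) and Ankrd1 (4.81). Csrp3 and Xirp1 were neighbours whose counting intervals overlapped in WS (23.0 to 25.5 and 21.6 to 23.2 CPM per kb) and in no other library. In KS the order was the same, with Ankrd1 again lowest at 4.54 CPM per kb. After denervation Ankrd1 stood above both Csrp3 and Xirp1. In WD it reached 353 CPM per kb, against 877 for Cryab, 122 for Csrp3 and 39.4 for Xirp1. Likewise in KD the level of Ankrd1 was 329 CPM per kb, with Cryab at 1027, Csrp3 at 140 and Xirp1 at 37.3. The excess of Ankrd23 over Ankrd1 per kb was 300-fold in WS and 267-fold in KS, and only 3.37-fold in WD and 3.26-fold in KD. Counted over all 13114 genes with an exon length in GENCODE M21, Ankrd1 moved from rank 5226 to rank 64 in WT muscle and from rank 5424 to rank 71 in Fgf21KO muscle. Ankrd23 ranked between 11 and 14 in all 4 libraries. These ranks cover only genes in the count table, which held 3 of 8 listed skeletal muscle markers. They are not ranks among all transcripts of the muscle. Exon lengths cover every annotated isoform, so the level per kb is a lower estimate for a gene expressed as a short isoform.

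**Figure D2:**
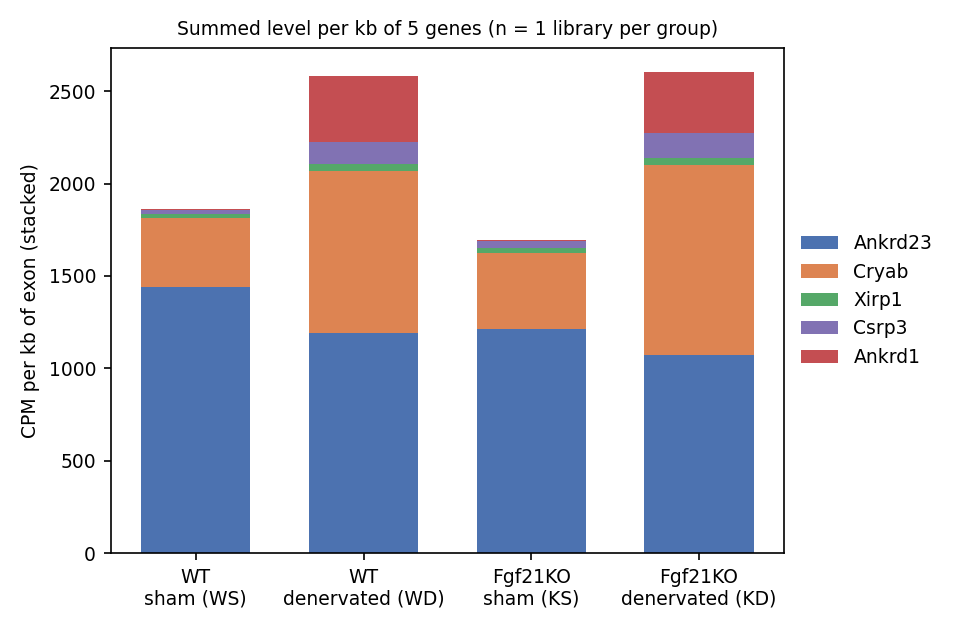
Level of the 5 genes per kb of exon (CPM per kb), stacked for each of the 4 pooled libraries. The sum is 1863 in WS and 1696 in KS, and 2581 in WD and 2605 in KD. The share of Ankrd23 goes from 77.4% to 46.1% in WT muscle and from 71.4% to 41.1% in Fgf21KO muscle, while that of Ankrd1 goes from 0.258% to 13.7% and from 0.267% to 12.6%.

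Csrp3 rose in both genotypes, and its sham level was the most different of the 5 between genotypes. The counts were 1506 and 10592 in sham and denervated WT muscle, and 3310 and 11574 in Fgf21KO muscle. In CPM these were 64.7, 325, 111 and 374. Its log2 ratio was 2.33 in WT muscle (counting interval 2.25 to 2.41) and 1.75 in Fgf21KO muscle (1.69 to 1.80). The additive log2 fold change for denervation was 2.03 ± 0.10 (SE), with an adjusted p of 9.46e-13. The step was smaller in Fgf21KO muscle by 0.58 on the log2 scale (counting interval of the difference -0.67 to -0.48). A difference of at least this size was seen in 1597 of the 13084 tested genes. With 1 library per group the interaction could not be tested, so this difference has no p-value. Relatives of Csrp3 in the cysteine and glycine rich protein family did not pass the criterion. Csrp1 had a log2 fold change of 0.50 ± 0.09 (SE) and Csrp2 one of -0.49 ± 0.33 at 36 to 53 counts.

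Cryab was the second most abundant of the 5 genes and also rose. Sham muscle had 12686 counts (WT) and 18265 (Fgf21KO), and denervated muscle 42292 and 46962. These correspond to 545 and 615 CPM in sham and 1297 and 1519 CPM in denervated muscle. The log2 ratio was 1.25 in WT muscle (counting interval 1.22 to 1.28) and 1.30 in Fgf21KO muscle (1.28 to 1.33), and the additive model gave 1.28 ± 0.08 (SE) with an adjusted p of 1.69e-11. Hspb2, a small heat shock gene annotated on the opposite strand, overlaps 17.0% of the exon bases of Cryab in GENCODE M21. It went the other way, from 1277 to 1092 counts in WT and from 1757 to 944 in Fgf21KO muscle, a log2 fold change of -0.83 ± 0.09 (SE) that did not reach the fold threshold. The library kit keeps strand, but whether the counting used it is not given in the sources used here, so reads in the overlap cannot be assigned with certainty.

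Xirp1 was higher in both denervated libraries but stayed under the fold threshold. Sham muscle had 3046 counts (WT) and 4135 (Fgf21KO), or 131 and 139 CPM, and denervated muscle had 7506 and 6737 counts, or 230 and 218 CPM. The log2 ratio was 0.81 in WT muscle (counting interval 0.75 to 0.88) and 0.65 in Fgf21KO muscle (0.59 to 0.70). In the additive model the log2 fold change was 0.73 ± 0.07 (SE) with an adjusted p of 4.71e-08. Without a fold threshold all 5 genes pass the p-value threshold for denervation, as do 52.9% of all tested genes. After TMM scaling 4 of the 5 had higher levels and 1, Ankrd23, a lower level. With total counts only, Xirp1 had a log2 fold change of 1.05 and passed both thresholds.

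**Figure D3:**
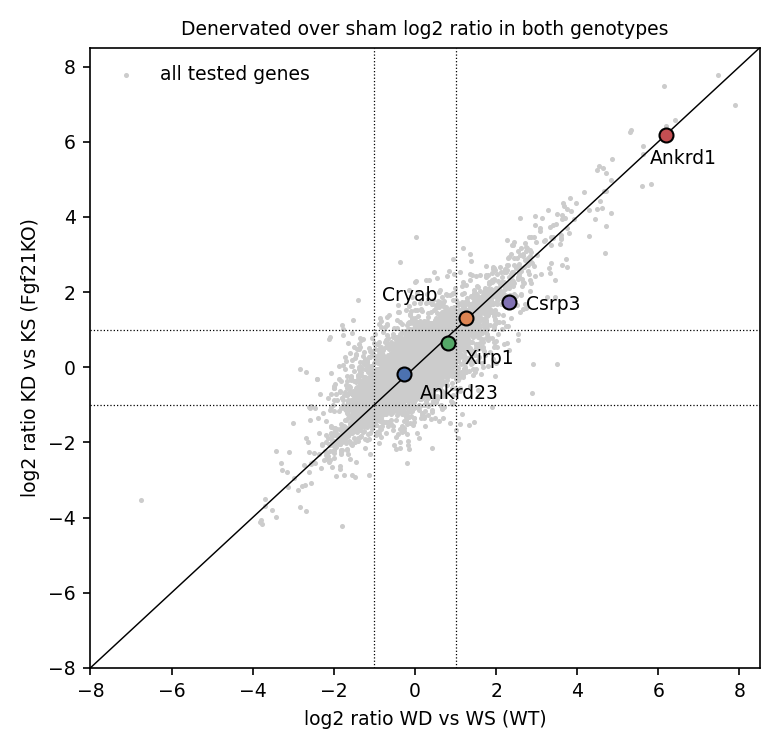
Log2 ratio of denervated over sham in Fgf21KO muscle (KD vs KS, vertical axis) against that in WT muscle (WD vs WS, horizontal axis) for all 13084 tested genes in grey and the 5 genes in colour. The solid line marks equal ratios and the dotted lines a log2 ratio of 1 in either direction. Ankrd1 sits at 6.19 and 6.17 near the top of the cloud, and Csrp3 at 2.33 and 1.75, below the line.

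The genotype comparisons asked whether these genes depend on Fgf21 in resting or denervated muscle. Of the 5 genes, 0 had a log2 ratio of at least 1 in size in KS vs WS, where 2.04% of all tested genes had one, and 0 in KD vs WD, where 1.56% had one. The largest was that of Csrp3 in sham muscle, where KS stood above WS by a log2 ratio of 0.78 (counting interval 0.70 to 0.87), a 1.72-fold higher level. In denervated muscle its log2 ratio was 0.20 (0.17 to 0.24) in KD vs WD. For Ankrd1 the values were -0.08 (-0.30 to 0.13) in sham and -0.10 (-0.13 to -0.08) in denervated muscle. Cryab had 0.17 and 0.23, Xirp1 0.09 and -0.08, and Ankrd23 -0.25 and -0.15. By the additive model with the same criterion, 0 of the 5 genes were called for genotype with edgeR and 0 with DESeq2, and 0.168% of all tested genes were called by edgeR. The share called by DESeq2 is not reported here. At an unadjusted p below 0.05 there were 3 (Csrp3, Cryab and Ankrd23), and 7.63% of all tested genes. Csrp3 had a genotype log2 fold change of 0.47 ± 0.10 (SE) with an adjusted p of 0.02, below the fold threshold. Only 0.573% of all tested genes passed the p-value threshold alone, but the adjusted p of Csrp3 ranged from 6.49e-07 to 0.151 over the alternatives tried, and by DESeq2's Wald test it was 0.0934. No gene of the 5 had denervation log2 ratios at least 1 apart between the genotypes, as 4.11% of all tested genes did.

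Other genes of the same structures were taken from lists. Cryab belongs to the small heat shock proteins, some of which work with Bag3 in chaperone-assisted selective autophagy, the route that clears damaged filamin. Of 14 other genes of this group that were tested, 4 rose, 1 fell and 9 did not pass (6.8% of all tested genes rose and 6.15% fell), with a median log2 fold change of 0.55 against 0.01 over all tested genes. Hspb8, the small heat shock partner of Bag3, rose most (2.84 ± 0.08 SE, adjusted p 2.81e-16), from 8604 to 89852 counts in WT and from 11108 to 79378 in Fgf21KO muscle. Hspb7 followed with 1.74 ± 0.08 (SE, adjusted p 2.89e-13). Hspb1 (1.04) and Hspa1b (1.09) also rose, the latter at 68 to 202 counts and with the near-identical copy Hspa1a at 0.78, between which reads could be split. Synpo2, a Z-disc protein that takes part in the same autophagy route, fell by 1.41 on the log2 scale (SE 0.07, adjusted p 1.81e-12). Bag3 itself had a log2 fold change of 0.30 and did not pass the fold threshold.

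Proteins of the Z-disc and the titin I-band formed another list. Of 33 genes listed, 14 were tested, and 0 rose, 5 fell and 9 did not pass, where 6.8% of all tested genes rose and 6.15% fell. Their median log2 fold change was -0.23 against 0.01 over all tested genes. Sorbs2, an adaptor of the Z-disc, fell from 1862 to 600 counts in WT and from 2773 to 692 in Fgf21KO muscle, with a log2 fold change of -2.09 ± 0.08 (SE, adjusted p 3.38e-14). Synm, the intermediate filament protein synemin, fell by 2.02 on the log2 scale (SE 0.08, adjusted p 1.52e-14). Capn3, a protease that binds titin next to the ankyrin repeat proteins, fell by 1.22, and Pdlim7 and Palld both fell by 1.10. The highest values were those of Fhl1 (0.91) and Pdlim1 (0.61), and neither reached the fold threshold. Desmin, which Cryab protects, had a log2 fold change of 0.55, and nebulin (Neb) one of 0.03. Flna, which encodes the widely expressed filamin A, had a log2 fold change of -0.87. Of 3 genes listed as relatives of Flnc and Csrp3, 0 passed the criterion.

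A further list held YAP, TEAD and SRF factors, some of which can act on Ankrd1, together with their regulators and targets. Of 20 tested genes of the YAP, TEAD and SRF group, 2 rose, 4 fell and 14 did not pass, against 6.8% and 6.15% of all tested genes that rose and fell. Their median log2 fold change was -0.12. Ccn1, a target of YAP and TEAD, rose from 356 to 3069 counts in WT and from 497 to 3034 in Fgf21KO muscle (log2 fold change 2.58 ± 0.09 SE, adjusted p 2.14e-15). Tead4 rose by 1.65 (SE 0.12, adjusted p 7.29e-10). Ccn2, another known target, had -0.42 and did not pass, and Yap1 had 0.04. The genes that fell were Mrtfa (-1.31) and Srf (-1.27), which form an actin-sensing pair of transcription factors, and the smooth muscle genes Acta2 (-1.31) and Tagln (-1.25). The last 2 are also markers of smooth muscle cells, as given next.

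**Figure D4:**
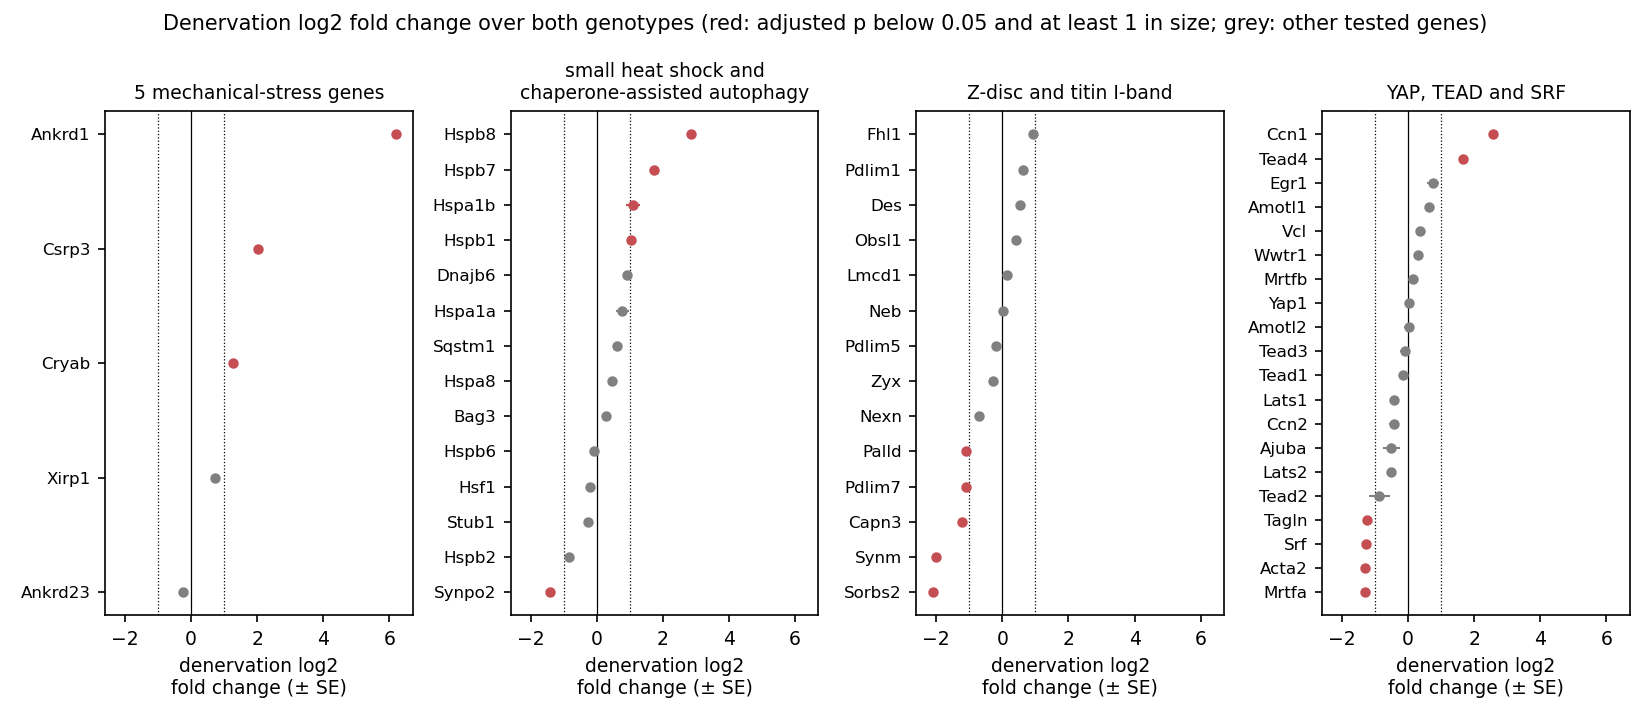
Denervation log2 fold change (± SE) of the additive model for the tested genes of 4 lists, with red points for genes at an adjusted p below 0.05 and at least 1 in size and grey points for the others. Each SE was derived from the F statistic of the test. Dotted lines mark a log2 fold change of 1 in either direction. Ankrd1 at 6.19 lies beyond every gene of the other lists, of which Hspb8 reaches 2.84, and the Z-disc list has 5 red points, all below 0.

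Some markers of other cells in the muscle also passed the criterion, and their part in the results above was not tested. Macrophage markers summed to 30.8 CPM in WS and 33.6 in KS, and to 70.1 in WD and 67.9 in KD, with 3 of 8 higher by the criterion. Of 7 smooth muscle and pericyte markers 6 were lower, their sum going from 793 to 361 CPM in WT and from 743 to 354 in Fgf21KO muscle. Endothelial markers summed to 426, 201, 344 and 190 CPM in WS, WD, KS and KD, and 2 of 6 were lower. No fibro-adipogenic marker of 8 passed, although their sum went from 625 to 417 CPM in WT and from 608 to 428 in Fgf21KO muscle. In bulk RNA, fewer cells of a type and less RNA per cell cannot be told apart. Within the fibres, Tnnt1 (2.91) and Atp2a2 (2.21), both slow fibre genes, were 2 of 4 tested slow fibre genes that rose. The other two did not pass, with log2 fold changes of -0.41 for Tpm3 (adjusted p 0.000941) and 0.43 for Tnnc1 (adjusted p 0.191). The 3 fast fibre genes tested (Myh1, Mylpf and Tnni2) had log2 fold changes between -0.88 and -0.47, and none reached the fold threshold. Ncam1, which denervated fibres express, rose by 3.55 and was the 1 gene of the regeneration list in the table, so regeneration was not assessed here. Of the other lists, 1 of 3 Schwann cell markers (Pmp22, -2.25) and 1 of 2 tendon markers (Mkx, at 7 to 24 counts) were lower, and none of 5 erythrocyte markers or the 1 adipocyte marker passed.

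For each of the 5 genes, the genes with the nearest profile over the 4 libraries were found by Euclidean distance between log2 CPM values, each centred on its own mean, among the 11316 genes whose mean count reached 50. The distances rest on 4 libraries and are a description only. Nearest to Ankrd1 was Aif1l, an actin-binding protein, at a distance of 0.07, with 71 and 86 counts in the sham libraries and 7053 and 6505 in the denervated ones (WT, then Fgf21KO). Emb, the cell adhesion protein embigin, came next at 0.29. For Csrp3 the nearest were Psat1 (0.12), an enzyme of serine synthesis, and Trappc6a (0.19), both at or below 238 counts. Cryab lay nearest to BC005561 (0.06) and Arpp19 (0.07). The genes nearest to Xirp1 (Ube2e2 and Gsto1) and to Ankrd23 (Tns2 and Sh3bp5l) were each at a distance of 0.02. No member was among the 2 nearest genes of another member.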

How the data were processed

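RNA of 4 TA muscles per group was pooled and sequenced from TruSeq Stranded mRNA libraries, giving 1 library for each of WS, WD, KS and KD. The authors deposited raw read counts per gene, without normalization, and each gene in the table has at least 1 read in each library. The second table, named by the authors for FPKM, holds deposited log2 values that equal the log2 of a count times 1 factor per library, plus 1, without correction for gene length. The submitters' processing notes name GRCm39 and FastQC. The aligner and counter are not given in the sources used here. Because the reference held here is of GRCm38, only promoter entries carry coordinates.

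Samples were assigned by their titles and columns by the abbreviations of the study. The software was edgeR 4.0.16 and DESeq2 1.42.0 (run in R 4.3.3) and scipy 1.17.1 (Python 3.11.15). TMM factors were taken over the whole table, and a gene was tested if its mean count reached 10. Single libraries were compared by the size of their log2 ratio (prior count 2), with exact 95% binomial intervals that cover counting error only (for differences of ratios, a normal approximation). For main effects, an additive model was fitted and tested with edgeR's quasi-likelihood F-test (common biological coefficient of variation 0.068, median prior degrees of freedom 18.5), with Benjamini-Hochberg adjustment over all 13084 genes. Its p-values rest on how far the 4 pools depart from the additive model and on spread borrowed from other genes. They do not measure the spread between pools of the same group or between mice. Each SE given is the size of the log2 fold change divided by the square root of F. It therefore restates the test and has the same limits as the p-value. Data were also simulated at an assumed variation of 0.1, without a genotype effect, with 200 of 13084 genes changed by 2 on the log2 scale. Of these, 98.5% were recovered with 2 false calls. This rate depends on the assumed variation and does not show how reliable the calls are in these pools.

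Genes and lists were chosen with earlier results of these data known. The genes named are the members, the 2 highest and 2 lowest tested genes of each other list by denervation log2 fold change, and the 2 nearest profiles of each member. Other list genes were named after their values were seen, and some list genes are not reported here. Alternatives were DESeq2's size factors and Wald test, total counts, TMM without mitochondrially encoded genes, no filter or a minimum mean of 50, a prior count of 0.125 or 5, the second table, edgeR's exact test at an assumed variation of 0.1 or 0.4, and no fold threshold.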

Additional observations from a re-analysis of the deposited data

Results flagged for a closer look

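A pair of fibroblast markers named by the rule had denervation ratios of opposite sign in WT and Fgf21KO muscle, each with counting intervals that exclude 0, and none of the 5 mechanical-stress genes did. The differences were not tested. For Pi16 the log2 ratio was 0.72 (WT) against -1.05 (Fgf21KO), a difference of -1.77, at 149 and 345 counts in sham and denervated WT muscle and 305 and 152 in Fgf21KO muscle. Lum had log2 ratios of -0.44 and 0.15, a difference of 0.60. Opposite signs were not particular to fibroblast markers. Among list genes outside the naming rule, Neb had log2 ratios of -0.03 (WT) and 0.10 (Fgf21KO), and Hspb6 0.11 and -0.28.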

How the results depend on the processing

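No paired analysis was possible because a group holds only 1 library, made from pooled muscles without numbers that pair them, and no replicate could be left out. Of the counts of genes past a threshold, 56 values under an alternative lay within 1.5 times of the reported count and 4 did not. Some of the 56 could not change, since a filter leaves the ratio between a pair of libraries as it is. A change from 3 to 4 genes, with total counts only, also lay within that limit. This tally is therefore not a measure of robustness. At an assumed variation of 0.4, edgeR's exact test called 1 gene for denervation in WT and 1 in Fgf21KO muscle (Ankrd1 in both), in place of 3 by size. The share of all tested genes that the exact test called is not reported here. Without a fold threshold, the additive model called 5 genes for denervation and 1 for genotype (Csrp3). The sign turned with total counts only for Ankrd23, to 0.0016 for WT, 0.18 for Fgf21KO and 0.0914 (adjusted p 0.211, range over the alternatives 0.00892 to 0.211) in the additive model. It also turned for Xirp1 in the genotype effect (-0.0405, adjusted p 0.913, from 0.0026 in the main model) and for the Ankrd1 difference between genotypes (0.0564). For Ankrd1, Csrp3 and Cryab the denervation call held under each of the 7 alternatives to the additive model. All of these used the same 4 libraries, and dropping the fold threshold could not remove a call. The exact test at an assumed variation of 0.4 is not among them. Counting intervals were widest for Ankrd1, which had 323 and 389 counts in sham muscle. The spread between mice cannot be estimated from 1 pool per group.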
